A study of Mus musculus with 16 samples.

Results

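A set of 10 genes named for their roles in holding back Toll-like receptor (TLR) and cytokine signalling were followed through mouse macrophages treated with bacterial lipopolysaccharide (LPS), with the REV-ERB agonist SR9009, or with both. They were chosen by name: Socs1, Socs3, Cish, Irak3, Tnip1, Tnip3, Zc3h12a, Zc3h12c, Zc3h12d and Il4ra, 10 of the 56748 genes in the count table. All 10 passed the filter on low counts, as did 13438 genes in all. Il4ra encodes a signalling receptor chain and is no inhibitor itself, so the set holds 9 genes named as inhibitors and 1 receptor. Inhibition by their products was not tested here.

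Macrophages were grown from the bone marrow of male wild-type C57BL6 mice with supernatant of L929 cells, a fibroblast line that supplies macrophage growth factor. Each of 4 mice gave 1 library to each of 4 groups, so 16 libraries of RNA sequencing counts were compared. The DMSO group received the vehicle, and the LPS group received LPS at 100 ng/mL for 6 hours. The SR9009 group received SR9009 at 10 µM for 16 hours, a synthetic compound that activates REV-ERBα and REV-ERBβ, nuclear receptors that repress transcription in the circadian clock. The SR9009 and LPS group received SR9009 for 16 hours and LPS at 100 ng/mL for 6 hours. Of treatments, the LPS group's labels name only LPS. Whether those cells also had DMSO is not given in the sources used here, so a vehicle difference and the SR9009 effect cannot be told apart in that comparison. The series title concerns how the circadian clock acts on fibrinolysis by innate immune cells.

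LPS binding to TLR4 recruits the adaptor MyD88 and IRAK kinases and activates NF-κB, and the transcripts that follow include those of the pathway's own inhibitors. SOCS1, SOCS3 and CIS (the Cish product) carry an SH2 domain and a SOCS box and restrain JAK-STAT signalling below cytokine receptors. IRAK3, also called IRAK-M, is an IRAK family member with little kinase activity that dampens TLR signalling in monocytes and macrophages. ABIN-1 (Tnip1) binds ubiquitin chains, and ABIN-1 and ABIN-3 (Tnip3) bind the NF-κB inhibitor A20. The Regnase proteins (Zc3h12a, Zc3h12c and Zc3h12d) are CCCH zinc finger RNases or RNase-like proteins that act on inflammatory transcripts. IL-4Rα (Il4ra) is the shared receptor chain for IL-4 and IL-13 and signals through STAT6.

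Library totals ran from 12616442 to 24214863 counts. The SR9009 library of mouse 1 stood apart, with the lowest total and 13298 genes with a count, against 16419 to 18947 in the other libraries. Socs1, Socs3 and Cish had no counts in it, where 3 counts would be 0.209 CPM (counts scaled to library size with TMM factors), a limit that covers counting error only. Many tested differences that use the SR9009 group are given with and without it, and some only with it. The list of 8 macrophage markers summed to between 5461 and 10293 CPM in every library, while neutrophil markers summed to at most 7.24, T cell markers to at most 6.71, B cell markers to at most 1.87, dendritic cell markers to at most 8.40, mast cell or basophil markers to at most 0.513 and erythroid markers to at most 0.329 CPM. Stromal or endothelial markers summed to 4.18 to 21.3 CPM without LPS and to 101 to 203 CPM with LPS. Most of that was the endothelial marker Kdr, at a mean of 138 CPM in the LPS group and 122 CPM in the SR9009 and LPS group. In each group 3 to 5 of the 8 neutrophil markers were at 0 in all 4 libraries, Ly6g and Retnlg among them. S100a8, of the same list, had counts in every library. Its mean was 0.223 CPM with DMSO, 0.485 with SR9009, 4.43 with LPS and 2.18 with SR9009 and LPS. The neutrophil list summed to at most 0.906 CPM in libraries without LPS. The part of that list in the results was not tested. Counts of bulk samples cannot tell fewer cells of a type from less RNA per cell.

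Transcripts of 9 of the 10 genes were higher in the LPS group than in the DMSO group, by 1.65 to 7.09 on the log2 scale, and Cish was not called. A gene was called where edgeR's quasi-likelihood test gave a Benjamini-Hochberg adjusted p under 0.05 over all 13438 genes, and 19.4% of all genes were called higher and 20.4% lower. The median log2 fold change was 2.93 over the 10 genes and -0.08 over all genes. Without LPS, 0 of the 10 were called in SR9009 versus DMSO by edgeR, DESeq2 or limma-voom, while edgeR called 0.878% and DESeq2 2.46% of all genes in either direction. At an unadjusted p under 0.05, 1 of the 10 passed (Socs1), against 11.7% of all genes. In cells given LPS, 3 of the 10 were lower with SR9009 (Il4ra, Zc3h12d and Tnip3) and 0 were higher, by edgeR, DESeq2 and limma-voom alike, where edgeR called 0.737% of all genes lower, 1.06% higher and 1.79% in either direction, and DESeq2 called 2.55% lower. The median there was -0.56 for the 10 genes and 0.02 over all genes. From SR9009 to SR9009 and LPS, 8 of the 10 were higher, against 14.5% of all genes, and Cish and Zc3h12d were not called. Leaving out the mouse 1 SR9009 library gave the same 8, against 22.7% of all genes called higher. It gave 0 in SR9009 versus DMSO, against 1.77% of all genes in either direction. These comparisons share libraries, so their values stand side by side and are not independent.

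**Figure D1:**
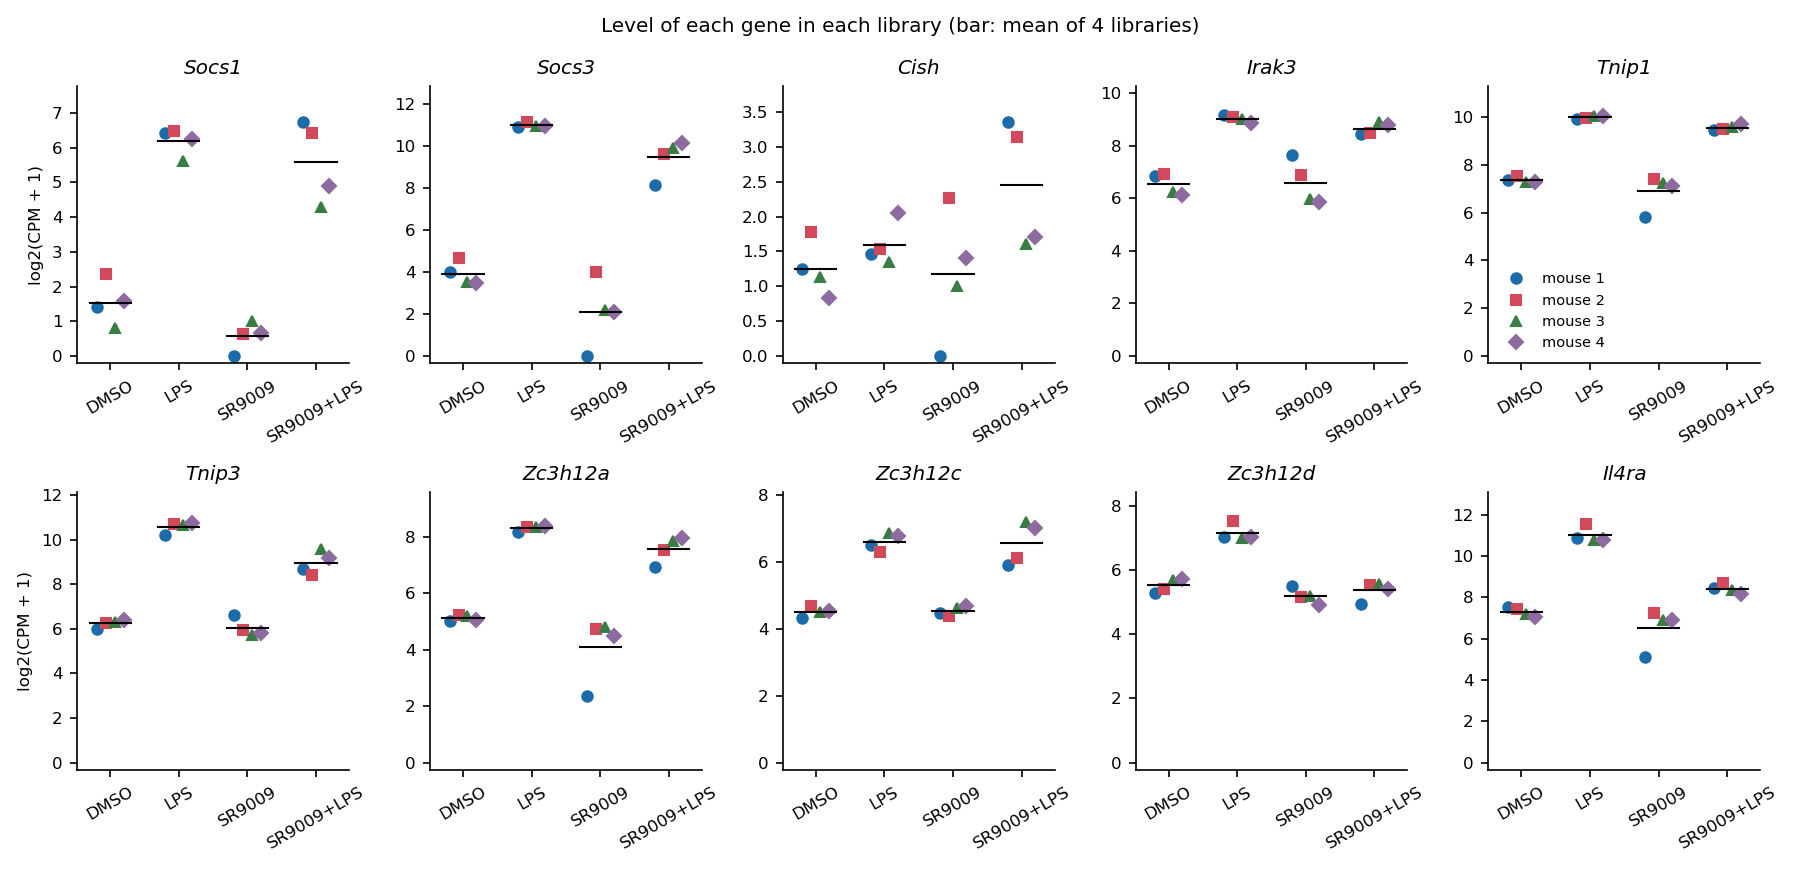
Level of each of the 10 genes as log2(CPM + 1) on the vertical axis in the 4 groups on the horizontal axis, 1 point for each library, with a symbol for each mouse and a bar at the mean of the 4 points. Il4ra, Tnip3 and Zc3h12d were lower in all 4 SR9009 and LPS libraries than in the 4 LPS libraries, and the SR9009 library of mouse 1 was at 0 for Socs1, Socs3 and Cish.

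Because Il4ra, Tnip3 and Zc3h12d were called both in LPS versus DMSO and in SR9009 and LPS versus LPS, their promoters are shown. Each is 300 bases, from 250 before to 50 after a start site, 5′ to 3′ on the gene's strand, from RefSeq on GRCm38.p6, where all 10 genes matched by symbol. The counts were made on GRCm39, so these positions and those given below for genes are on different builds. They are chr7:125552021-125552320 (plus strand) for Il4ra, chr6:65590148-65590447 (plus strand) for Tnip3 and chr10:7832220-7832519 (plus strand) for Zc3h12d. Capitals mark a match to the NF-κB consensus in Il4ra and Tnip3 and a match to the interferon response core in Zc3h12d.
Il4ra: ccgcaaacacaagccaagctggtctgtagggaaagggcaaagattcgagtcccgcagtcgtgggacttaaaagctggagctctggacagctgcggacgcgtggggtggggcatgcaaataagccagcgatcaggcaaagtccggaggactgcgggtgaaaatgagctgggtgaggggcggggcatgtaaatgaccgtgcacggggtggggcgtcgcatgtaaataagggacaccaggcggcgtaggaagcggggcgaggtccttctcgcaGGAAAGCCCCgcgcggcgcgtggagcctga
Tnip3: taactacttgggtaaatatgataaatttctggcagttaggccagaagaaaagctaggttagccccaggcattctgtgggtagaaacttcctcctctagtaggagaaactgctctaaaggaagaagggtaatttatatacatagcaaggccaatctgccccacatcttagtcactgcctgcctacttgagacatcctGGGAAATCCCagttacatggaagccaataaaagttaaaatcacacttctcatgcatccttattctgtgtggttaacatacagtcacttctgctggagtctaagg
Zc3h12d: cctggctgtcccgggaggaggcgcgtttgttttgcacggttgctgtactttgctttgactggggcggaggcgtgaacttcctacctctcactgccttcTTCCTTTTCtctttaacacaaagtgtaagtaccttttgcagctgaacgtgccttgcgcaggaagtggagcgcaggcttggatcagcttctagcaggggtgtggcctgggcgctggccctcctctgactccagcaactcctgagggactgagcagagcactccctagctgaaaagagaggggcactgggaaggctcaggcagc

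A set of 5 motifs was searched on both strands of these windows in all 10 genes and in all 32851 RefSeq promoters of that length. The STAT motif TTCNNNGAA was in 3 of the 10 genes, and in 8.30% of all promoters. Cish held TTCCTGGAA and TTCTTGGAA, Socs3 held TTCTTAGAA and Tnip1 held TTCCTGGAA. The interferon response core GAAANNGAA was in Irak3, Socs1 and Zc3h12d, and in 8.56% of all promoters, and the matches of Socs1, GAAAGAGAA and GAAACCGAA, overlap. The NF-κB consensus was in Il4ra, Tnip1 and Tnip3, and in 4.51% of all promoters, with overlapping matches in Tnip1. The AP-1 motif TGANTCA and the REV-ERB core TAGGTCA were in 0 of the 10 genes, and in 7.81% and 2.61% of all promoters. A match or its absence describes these windows and shows nothing about binding. Irak3 and Zc3h12c have a pair of windows each, so the shares per gene and per promoter are not on the same base.

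Per length, the order of the 10 genes differed between groups, as deposited FPKM values show (fragments per kilobase of gene, scaled to library size, mean ± SD, n = 4). In the DMSO group Tnip1 was the most abundant at 45.1 ± 4.0 FPKM, followed by Il4ra at 25.4 ± 3.9 and Irak3 at 25.0 ± 7.2, whose ranges overlapped. In the LPS group Socs3 led at 699 ± 54.2 FPKM, and Il4ra at 354 ± 107 and Tnip1 at 289 ± 8.88 came next with overlapping ranges. With SR9009 and LPS, Socs3 at 266 ± 120 FPKM and Tnip1 at 212 ± 14.1 overlapped, and Il4ra ranked 5 of 10 at 56.8 ± 9.29, overlapping with Zc3h12a above it and Tnip3 below. In the SR9009 group Tnip1 led again at 34.2 ± 12.6 FPKM, with Irak3 at 28.8 ± 18.9 and Il4ra at 16.3 ± 7.41, each overlapping its neighbour. Cish was at most 1.44 FPKM in any library and last in 3 of the 4 groups. This order depends on the gene lengths in the count table, from 2882 bases for Zc3h12a to 10916 for Tnip3. By CPM, Tnip3 averaged 1572 and Tnip1 1020 in the LPS group, while FPKM placed Tnip1 above Tnip3.

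Socs3 (ENSMUSG00000053113, chromosome 11, 117856905 to 117860873, minus strand, GRCm39) encodes the SOCS protein best known for restraining IL-6 receptor signalling to STAT3. Its level in mice 1 to 4 was 14.8, 24.0, 10.4 and 9.96 CPM with DMSO and 1923, 2220, 1939 and 1964 CPM with LPS. It was 0, 15.2, 3.50 and 3.32 CPM with SR9009 and 284, 784, 938 and 1118 CPM with SR9009 and LPS. Every LPS library was far above every library without LPS, and every SR9009 and LPS library was below every LPS library, with mouse 1 the lowest. Socs3 rose by 7.09 (SE 0.95) on the log2 scale with LPS (edgeR adjusted p = 2.82e-05), the largest change of the 10 genes in that comparison. The difference between SR9009 and LPS and LPS was -1.37 (SE 0.74) with an edgeR adjusted p of 0.455, which did not pass. It passed in 1 of 31 other settings, the fit with mouse as a block that left out the mouse 1 SR9009 library (adjusted p = 0.0433, range 0.0433 to 0.833). As a share of the LPS library of the same mouse, the SR9009 and LPS library held 14.8%, 35.3%, 48.4% and 56.9% in mice 1 to 4.

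Socs1 (ENSMUSG00000038037, chromosome 16, 10600104 to 10603400, minus strand) encodes a SOCS protein that binds JAK kinases and limits interferon signalling. Its level was 1.64, 4.15, 0.735 and 2.01 CPM with DMSO, and 84.1, 87.3, 48.4 and 74.6 CPM with LPS. With SR9009 it was 0, 0.548, 1.01 and 0.576 CPM, and with SR9009 and LPS 105, 85.3, 18.5 and 29.0 CPM. Relative to LPS alone, the last group held 125%, 97.7%, 38.3% and 38.9% in mice 1 to 4, so that mouse 1 was higher, mouse 2 was close to its LPS level, and mice 3 and 4 were lower. Socs1 rose by 5.11 (SE 0.71) on the log2 scale with LPS (edgeR adjusted p = 3.8e-05) and by 6.71 (SE 0.78) from SR9009 to SR9009 and LPS (adjusted p = 1.07e-05), or by 6.46 when the mouse 1 SR9009 library was left out. SR9009 versus DMSO gave -1.91 (SE 0.69), the lowest of the 10 genes, with an edgeR adjusted p of 0.302, and -1.63 when that library was left out (adjusted p = 0.408). With LPS the SR9009 difference was -0.31 (SE 0.59, adjusted p = 0.899).

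Cish (ENSMUSG00000032578, chromosome 9, 107173225 to 107179983, plus strand), a target of STAT5 that feeds back on cytokine receptors, was barely detected. It ranged from 0.789 to 2.42 CPM with DMSO, from 1.54 to 3.14 CPM with LPS and from 0 to 3.80 CPM with SR9009. With SR9009 and LPS it was 9.22, 7.83, 2.05 and 2.25 CPM in mice 1 to 4. Only mice 1 and 2 stood above the other groups, and Cish was called in 0 of the 5 contrasts. From SR9009 to SR9009 and LPS it was higher in 4 of 4 mice, by 1.69 (SE 0.76, edgeR adjusted p = 0.106), or by 1.37 (adjusted p = 0.075) when the mouse 1 SR9009 library was left out, and it was called in 4 of 31 other settings (0.0316 to 0.289). Its difference between SR9009 and LPS and LPS was 1.36 (SE 0.76) on the log2 scale, with an edgeR adjusted p of 0.474.

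Irak3 (ENSMUSG00000020227, chromosome 10, 119977553 to 120038035, minus strand) was at 115, 122, 74.1 and 67.8 CPM with DMSO, and at 575, 543, 515 and 458 CPM with LPS. It was at 197, 118, 61.7 and 57.3 CPM with SR9009, and at 344, 352, 472 and 445 CPM with SR9009 and LPS. The groups with and without LPS did not overlap, while LPS and SR9009 and LPS did. Irak3 rose by 2.46 (SE 0.35) on the log2 scale with LPS (edgeR adjusted p = 4.53e-05) and by 1.89 (SE 0.34) from SR9009 to SR9009 and LPS (adjusted p = 0.000574), or by 2.41 when the mouse 1 SR9009 library was left out. With LPS the SR9009 difference was -0.37 (SE 0.33, adjusted p = 0.713), lower in 4 of 4 mice. Irak3 overlaps Tmbim4, a gene on the other strand with up to 1828 counts in a library. The strand setting of the counting is not given in the sources used here, so reads of these genes cannot be told apart. The other 9 genes overlap no protein-coding gene, and the non-coding genes that overlap them had at most 14 counts.

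Of the ABIN genes, both rose with LPS, and Tnip3 alone was called lower when SR9009 was added. Tnip3 (ENSMUSG00000044162, chromosome 6, 65502297 to 65611024, plus strand) was at 63.4, 77.3, 77.5 and 82.9 CPM with DMSO, and at 1212, 1673, 1648 and 1755 CPM with LPS. It was at 98.1, 60.6, 52.5 and 54.8 CPM with SR9009, and at 416, 343, 783 and 583 CPM with SR9009 and LPS. All SR9009 and LPS libraries lay below all LPS libraries and above all libraries without LPS. Tnip3 rose by 4.38 (SE 0.30) on the log2 scale with LPS (edgeR adjusted p = 4.99e-08). It fell by 1.57 (SE 0.27) with SR9009 in LPS-treated cells, 2.96-fold (adjusted p = 0.00748), lower in 4 of 4 mice. Without mouse 2, 3 or 4 the difference was -1.37, -1.79 or -1.56 and the adjusted p 0.149, 0.0694 or 0.196, and it was under 0.05 in the other 28 of 31 settings (lowest 4.73e-06). The difference was of similar size when the mouse 1 SR9009 library was left out, at -1.53 (adjusted p = 0.000675).

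Tnip1 (ENSMUSG00000020400, chromosome 11, 54801611 to 54853743, minus strand) was at 165, 185, 154 and 154 CPM with DMSO, and at 954, 1002, 1067 and 1059 CPM with LPS. It was at 55.0, 169, 150 and 139 CPM with SR9009, and at 698, 726, 768 and 836 CPM with SR9009 and LPS. The SR9009 and LPS libraries were all below the LPS libraries, by a similar share in each mouse, 73.2%, 72.5%, 72.0% and 78.9% of the level with LPS alone. Tnip1 rose 6.21-fold with LPS (SE 0.27 on the log2 scale, edgeR adjusted p = 1.97e-06). The SR9009 difference with LPS was -0.43 (SE 0.25, adjusted p = 0.5). When the mouse 1 SR9009 library, which is in neither group, was left out of the fit, the difference of -0.40 was called (adjusted p = 0.0251). In that fit 4.79% of all genes were called lower. Tnip1 was called in 2 of 31 other settings (adjusted p 0.0121 to 0.933).

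**Figure D2:**
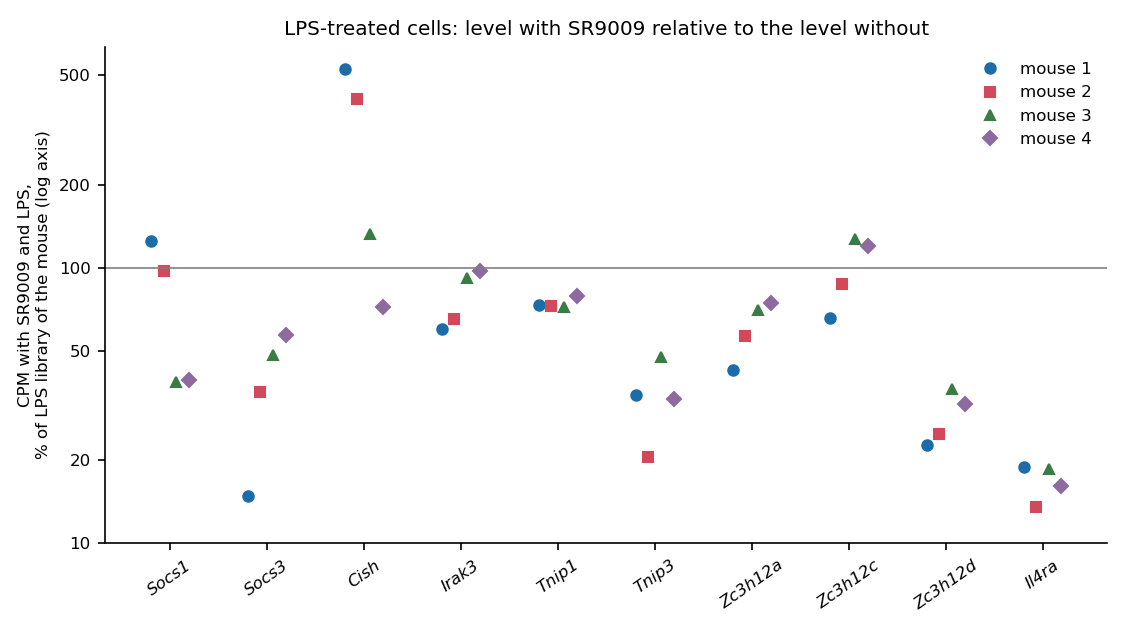
Level with SR9009 and LPS as a percent of the level in the LPS library of the same mouse, from CPM, on a log axis, for the 10 genes on the horizontal axis, 1 point for each mouse and a line at 100%. Il4ra lay between 13.5% and 18.8% in the 4 mice, and Socs1, Cish and Zc3h12c had mice on both sides of the line.

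All 3 Regnase genes rose with LPS, and Zc3h12d alone was called lower with SR9009. Zc3h12d (ENSMUSG00000039981, chromosome 10, 7708234 to 7746160, plus strand), which encodes Regnase-4, was at 38.4, 41.9, 50.9 and 52.2 CPM with DMSO, and at 130, 184, 129 and 132 CPM with LPS. It was at 44.6, 34.6, 35.9 and 29.4 CPM with SR9009, and at 29.6, 45.7, 46.8 and 42.1 CPM with SR9009 and LPS. The SR9009 and LPS libraries were within the range of the libraries without LPS, and all were below the LPS libraries. Zc3h12d rose by 1.65 (SE 0.21) on the log2 scale with LPS (edgeR adjusted p = 1.36e-05). It fell by 1.81 (SE 0.21), 3.50-fold, with SR9009 in LPS-treated cells (adjusted p = 0.00056), lower in 4 of 4 mice and under 0.05 in all 31 other settings (highest 0.0479). From SR9009 to SR9009 and LPS the difference was 0.18 (SE 0.20, adjusted p = 0.535), and it was called in 2 of 31 other settings (0.0288 to 0.902). Leaving out the mouse 1 SR9009 library gave 0.36 (adjusted p = 0.115).

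Zc3h12a (ENSMUSG00000042677, chromosome 4, 125012216 to 125021633, minus strand) encodes Regnase-1, which degrades transcripts such as Il6. Its level was 31.8, 36.7, 35.7 and 32.2 CPM with DMSO, and 286, 326, 326 and 339 CPM with LPS. With SR9009 it was 4.18, 25.4, 26.8 and 21.4 CPM, and with SR9009 and LPS 122, 184, 229 and 252 CPM. The SR9009 libraries were below the DMSO libraries, and the SR9009 and LPS libraries below the LPS libraries, each with no overlap and with mouse 1 the lowest. Zc3h12a rose by 3.23 (SE 0.41) on the log2 scale with LPS (edgeR adjusted p = 1.79e-05). Its SR9009 differences were -0.81 (SE 0.38, adjusted p = 0.428) without LPS and -0.70 (SE 0.38, adjusted p = 0.458) with LPS. Leaving out the mouse 1 SR9009 library gave -0.52 (adjusted p = 0.262) and -0.67 (adjusted p = 0.0214), the latter called in 3 of 31 other settings (0.00592 to 0.936).

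Zc3h12c (ENSMUSG00000035164, chromosome 9, 52022644 to 52079872, minus strand), which encodes Regnase-3, was at 19.0, 24.3, 21.6 and 22.2 CPM with DMSO, and at 89.4, 77.5, 114 and 108 CPM with LPS. It was at 21.1, 19.6, 23.4 and 24.3 CPM with SR9009, and at 58.9, 67.4, 145 and 129 CPM with SR9009 and LPS. Mice 1 and 2 were below and mice 3 and 4 above their own LPS libraries. Zc3h12c rose by 2.16 (SE 0.27) on the log2 scale with LPS (edgeR adjusted p = 1.23e-05) and by 2.18 (SE 0.27) from SR9009 to SR9009 and LPS (adjusted p = 1.67e-05), or by 2.21 when the mouse 1 SR9009 library was left out. The SR9009 difference with LPS was 0.04 (SE 0.26, adjusted p = 0.98).

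Il4ra (ENSMUSG00000030748, chromosome 7, 125151292 to 125178646, plus strand) had the largest SR9009 difference of the 10 genes. Its level was 184, 171, 143 and 130 CPM with DMSO, and 1869, 3029, 1757 and 1779 CPM with LPS. With SR9009 it was 33.5, 148, 118 and 118 CPM, and with SR9009 and LPS 352, 410, 327 and 285 CPM. LPS libraries stood above all others, and the SR9009 and LPS libraries lay between them and the libraries without LPS, with no overlap. Il4ra rose by 3.75 (SE 0.37) on the log2 scale with LPS (edgeR adjusted p = 1.58e-06). In LPS-treated cells it fell by 2.62 (SE 0.36) with SR9009, 6.14-fold (adjusted p = 0.00139), lower in 4 of 4 mice. It was called in 29 of 31 other settings (lowest adjusted p 8.32e-12), and without mouse 3 or 4 the difference was -2.67 or -2.61 and the adjusted p 0.0716 or 0.0889. From SR9009 to SR9009 and LPS it rose by 1.72 (SE 0.34, adjusted p = 0.0013), or by 1.49 when the mouse 1 SR9009 library was left out. SR9009 versus DMSO gave -0.59 (SE 0.34, adjusted p = 0.509) with that library and -0.34 (adjusted p = 0.702) when it was left out.

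Whether SR9009 acted differently with and without LPS was tested as the interaction, which is the difference between the 2 SR9009 effects. edgeR called 0 of the 10 genes and 0.00744% of all genes. At an unadjusted p under 0.05, 3 of the 10 passed (against 7.14% of all genes): Zc3h12d at -1.46 (SE 0.29, adjusted p = 0.155), Il4ra at -2.03 (SE 0.48, adjusted p = 0.203) and Tnip3 at -1.39 (SE 0.37, adjusted p = 0.281). DESeq2 called Il4ra and Zc3h12d (adjusted p 0.00794 and 0.0020) and 0.766% of all genes, while limma-voom called 0 of the 10. Leaving out the mouse 1 SR9009 library, edgeR gave -1.06 for Tnip3 (adjusted p = 0.146). In that fit Il4ra and Zc3h12d were called again (adjusted p 0.00461 and 0.0401), with 0.3% of all genes. Each was called in 4 of 30 other settings, with adjusted p from 0.000296 to 1 for Il4ra and from 0.002 to 1 for Zc3h12d.

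**Figure D3:**
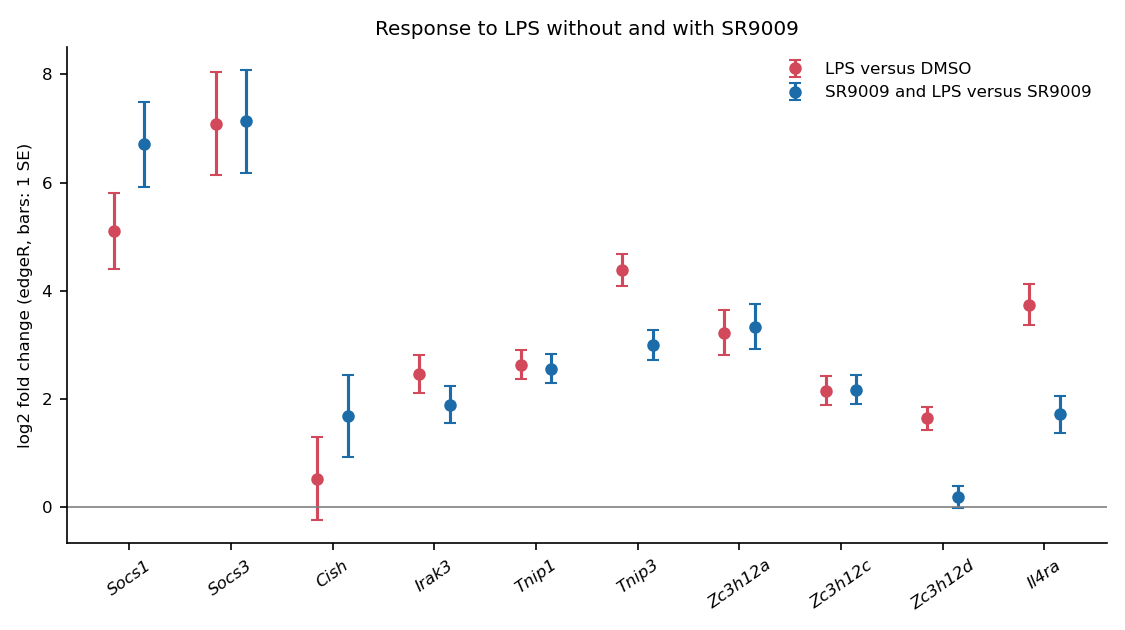
Log2 fold change of each of the 10 genes with LPS, from edgeR, with 1 SE as the bar, for LPS versus DMSO (red) and SR9009 and LPS versus SR9009 (blue). The blue point is lower for Il4ra (3.75 and 1.72), Zc3h12d (1.65 and 0.18), Tnip3 (4.38 and 3.00) and Irak3 (2.46 and 1.89). It is higher for Socs1 (5.11 and 6.71) and Cish (0.53 and 1.69), and close for Socs3 (7.09 and 7.13). Without the mouse 1 SR9009 library the blue value was 3.31 for Tnip3, 2.41 for Irak3 and 6.78 for Socs3.

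Groups of 6 of the 10 genes did not overlap between SR9009 and LPS and LPS, all lower: Il4ra, Zc3h12d, Tnip3, Socs3, Tnip1 and Zc3h12a (7.78% of all genes were lower in this way). Without LPS only Zc3h12a did not overlap, against 4.64% of all genes lower. Without the SR9009 library of mouse 1, 5 of the 10 were called lower in SR9009 and LPS versus LPS (4.79% of all genes), the added ones being Tnip1 and Zc3h12a. With mouse as a block, the calls for the 10 genes stayed at 3, and 1.78% of all genes were called lower. The block without the SR9009 library of mouse 1 called 6 of the 10 (9.7% of all genes), with Socs3 added. Without mouse 3 or without mouse 4, 1 of the 10 was called lower, Zc3h12d, and 0.0298% or 0.0223% of all genes.

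Genes near these in the pathways were counted in the same fit, from 8 lists written from general knowledge. With LPS, 19.4% of all genes were called higher and 20.4% lower. In SR9009 and LPS versus LPS, edgeR called 1.06% of all genes higher and 0.737% lower. There 13.5% of all genes had an unadjusted p under 0.05, in either direction. Of the other SOCS genes, 1 of 4 rose with LPS (Socs7, 1.26, edgeR adjusted p = 0.0245) and 0 were called with SR9009 in LPS-treated cells, by edgeR, DESeq2 or limma-voom and at an unadjusted p under 0.05. Of the 23 TLR4 receptor, adaptor and kinase genes tested, 12 rose and 3 fell with LPS, including Irak2 (2.77) and the adaptor gene Myd88 (2.03). In LPS-treated cells 1 was higher with SR9009 and 0 were lower by edgeR. The higher gene was Ikbkg, which encodes the regulatory subunit NEMO of the IκB kinase, at 77.1 ± 5.21 CPM with LPS and 143 ± 30.7 CPM with SR9009 and LPS (log2 fold change 0.89, edgeR adjusted p = 0.0128). When the mouse 1 SR9009 library was left out, 2 were higher and 3 lower, among them Myd88 (-0.75) and Tollip (-0.46). In that fit 6.68% of all genes were called higher and 4.79% lower. Of 9 genes for A20 and ubiquitin editing partners, 4 rose with LPS, among them Tnfaip3 (4.34), which encodes A20, Tax1bp1 (2.33) and N4bp1 (2.23). By edgeR 0 of the 9 were called with SR9009 in LPS-treated cells, DESeq2 called 1 and limma-voom 0. An unadjusted p under 0.05 was met by 4 of the 9, all lower, against 13.5% of all genes in either direction. Tnfaip3 was 866 ± 97.5 CPM with LPS and 454 ± 179 CPM with SR9009 and LPS (-0.93, adjusted p = 0.135), and Tax1bp1 was called lower when the mouse 1 SR9009 library was left out (-0.96, adjusted p = 0.00352).

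Of 11 other RNA decay genes, 4 rose and 3 fell with LPS. Zfp36, which encodes tristetraprolin, rose by 4.00 on the log2 scale and its relative Zfp36l2 fell by 3.18. In LPS-treated cells with SR9009 0 were called by edgeR and limma-voom, DESeq2 called 1 in each direction, and an unadjusted p under 0.05 was met by 1 in each direction. With mouse as a block Zfp36l2 was called higher (0.72, adjusted p = 0.0402, range over 31 settings 0.00188 to 0.47). The fit without the mouse 1 SR9009 library called Zfp36l2 higher and Zfp36 and Rc3h2 lower. In that fit 6.68% of all genes were called higher and 4.79% lower. Of 7 tested transcripts known as Regnase-1 targets, 4 rose and 2 fell with LPS, with a median of 3.60 against -0.08 over all genes. With SR9009 in LPS-treated cells 0 were called by edgeR, DESeq2 or limma-voom, and 1, which was higher, had an unadjusted p under 0.05. Il6 was 33.0 CPM with LPS and 23.0 CPM with SR9009 and LPS (edgeR adjusted p = 0.828), and Nfkbiz was 513 and 559 CPM (adjusted p = 0.908).

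Of 11 IL-4 receptor partners and STAT6 arm genes, 7 rose and 1 fell with LPS, led by the kinase gene Jak2 (3.65) and the phosphatase gene Ptpn1 (2.56). By edgeR and limma-voom 0 were called with SR9009 in LPS-treated cells, DESeq2 called 1 lower, and 1, also lower, had an unadjusted p under 0.05. Il2rg, which encodes the common gamma chain that pairs with IL-4Rα, was 223 ± 27.3 CPM with LPS and 168 ± 21.0 CPM with SR9009 and LPS (-0.41, adjusted p = 0.397). Ptpn1 was 881 and 443 CPM (-0.99, adjusted p = 0.147) and was called lower when the mouse 1 SR9009 library was left out (adjusted p = 0.000972). Of 10 tested genes induced by IL-4 in macrophages, 3 rose and 4 fell with LPS, and with SR9009 in LPS-treated cells 0 were called by edgeR, DESeq2 or limma-voom and 0 had an unadjusted p under 0.05.

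Of 23 cytokine, receptor and STAT genes upstream of SOCS proteins, 13 rose and 4 fell with LPS. In LPS-treated cells 2 were lower with SR9009 by edgeR, the cytokine receptor genes Il6ra and Csf3r, and 0 were higher. Il6ra, whose product binds IL-6, was 96.2 ± 27.2 CPM with LPS and 41.0 ± 10.8 CPM with SR9009 and LPS (-1.23, edgeR adjusted p = 0.024). Csf3r, the G-CSF receptor gene, was 409 ± 73.8 and 128 ± 32.6 CPM (-1.68, adjusted p = 0.0363). Both were lower in 4 of 4 mice, and the calls held in 22 and 17 of 31 other settings. The list count was 7 lower and 1 higher when the mouse 1 SR9009 library was left out, against 4.79% and 6.68% of all genes. It was 5 lower and 1 higher with mouse as a block, against 1.78% and 2.2% of all genes. The list medians in SR9009 and LPS versus LPS were -0.46 here, -0.38 for the A20 list and -0.51 for the Regnase-1 targets. They were -0.28 for the IL-4 receptor list, -0.12 for RNA decay and -0.06 for the TLR4 list. For genes induced by IL-4 the median was -0.0066 and for the other SOCS genes 0.17, beside 0.02 over all genes.

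The genes whose level ran most like each of the 10 over the 16 libraries were found by the mean absolute difference of log2(CPM + 1), each gene centred on its own mean, among protein-coding genes whose mean reached 5 CPM. For Il4ra these were B4galt5 (0.41) and Stk40 (0.43). For Tnip3 they were Rapgef2 (0.31) and Flt1 (0.33), and for Zc3h12d Naaa (0.26) and Cstf2 (0.30). For Tnip1 they were Nod2 (0.16) and Usb1 (0.18), and 1 of those for Zc3h12a was Ifi35 (0.22). For Zc3h12c they were Ube2e2 (0.21) and Cpd (0.23), for Irak3 Dram1 (0.22) and Epsti1 (0.22), and for Socs1 Usp18 (0.41) and Batf2 (0.43). Socs3 was nearest to Saa3 (0.52) and Ccl4 (0.61), the least close pair, and Cish to Guk1 (0.35) and Fcho1 (0.35). These are descriptions of shared group patterns, since all genes share the libraries.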

How the data were processed

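Messenger RNA was sequenced in 16 libraries, 4 groups by 4 mice. HISAT2 and the GRCm39 build (also mm39) are listed, per the submitters' processing notes. The sources used here do not name a counting tool, an annotation release or a strand setting. The authors deposited raw counts per gene, which were used for all tests, and FPKM values, which the authors scaled by gene length and library size and which served for levels between genes and as an alternative, per the file headers.

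Counts were fitted with edgeR 4.0.16 in R 4.3.3 (limma 3.58.1, DESeq2 1.42.0; tables in Python 3.11.15): filterByExpr (minimum count 10, minimum total 15), TMM factors, a robust quasi-likelihood model with 1 mean per group over all libraries, and an adjusted p threshold of 0.05. SE was taken from the test, as the absolute log2 change over the root of its F statistic, and values after ± are SD. The fit was also run on counts simulated from its own model, without a mouse effect. That outcome is not quoted here, and such counts meet the model's assumptions by design. Alternatives were DESeq2, limma-voom, other scalings and filters, limma on log2 FPKM (pseudocounts 1 and 0.1), the compared groups alone, mouse as a block, and leaving out mice or libraries. Same-numbered libraries come from the same mouse, per the labels; the correlation of their deviations from group means was 0.0809 to 0.560 over 24 pairs. The floor was 3 counts a library.

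The 10 genes, the lists and the tests were chosen with earlier results of these data known. Besides the 10, genes were named by rule: up to 2 of each list with the smallest p in LPS versus DMSO and up to 2 in SR9009 and LPS versus LPS, and the 2 genes most like each of the 10. Some genes that the rule names have no value printed, and 1 result is not reported here. Protein sequences were not used here.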

Additional observations from a re-analysis of the deposited data

Results flagged for a closer look

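In 3 of 40 groups of 4 libraries tested, 1 library stood far from the others (Dixon's test at the 95% level), and chance alone does so in about 1 in 20 groups. All 3 were the LPS library of mouse 2. Il4ra was 3029 CPM there and 1757 to 1869 CPM in the other LPS libraries, Zc3h12d was 184 CPM against 129 to 132 CPM, and Socs3 was 2220 CPM against 1923 to 1964 CPM. Without that library, edgeR's SR9009 and LPS versus LPS difference was -2.39 for Il4ra (adjusted p = 0.00688), -1.66 for Zc3h12d (adjusted p = 0.00335) and -1.31 for Socs3 (adjusted p = 0.635).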

How the results depend on the processing

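LPS versus DMSO gave 9 called genes and SR9009 versus DMSO 0 in all 31 other settings. For SR9009 and LPS versus LPS the count of 3 was 1 to 5 when mice or libraries were left out. Mouse as a block left it at 3 (adjusted p 0.00187 for Il4ra, 0.00131 for Zc3h12d and 0.00849 for Tnip3) and, for the 10 genes, changed no other call. The block without the SR9009 library of mouse 1 gave 6, with 9.7% of all genes called lower. The share of all genes called lower was 0.0223% without mouse 4 and 4.79% without that library alone. For the interaction the count of 0 was 0 to 2 when mice or libraries were left out, 2 with DESeq2, 1 with log2 FPKM and a pseudocount of 1, and 2 with the block without that library. Interaction calls over all genes were 0.766% with DESeq2, 1.99% with that block and 0.3% without that library alone. Log2 FPKM with a pseudocount of 1 called 11 genes higher and 38 lower of 13438. Some SR9009 differences that were not called changed sign as follows, and the cause was not tested. Cish in SR9009 versus DMSO was -0.65 with limma-voom, -0.17 with log2 FPKM (pseudocount 0.1) and -0.64 to 0.56 when libraries were left out. Irak3 there was -0.29 with the block without the SR9009 library of mouse 1 and -0.30 to 0.40 when libraries were left out. Zc3h12c there was -0.013 in the compared groups alone, -0.00051 and -0.00055 with log2 FPKM, -0.031 with no filter, -0.12 with the block without that library and -0.065 to 0.13 when libraries were left out. Zc3h12c in SR9009 and LPS versus LPS was -0.051 with limma-voom, -0.069 and -0.060 with log2 FPKM, -0.012 with the block and -0.19 to 0.23 when libraries were left out. Of 1330 alternative values of single genes, which include the interaction for Il4ra, Zc3h12d and Tnip3 only, 1275 kept their direction and side of the threshold, 20 gained a call, 5 lost one and 30 changed sign. The interaction of Socs1 (-0.07 to 2.47), Socs3 (-0.29 to 1.29), Tnip1 (-0.25 to 0.09), Zc3h12a (-0.15 to 0.35) and Zc3h12c (-0.21 to 0.29), never called, also had either sign. Upper-quartile scaling moved the all-gene median of LPS versus DMSO from -0.08 to -0.28.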
